A study of Homo sapiens with 24 samples.

Results

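The 8 genes described here encode the machinery that senses sterols and switches lipid synthesis and uptake on and off: the transcription factors *SREBF1* and *SREBF2*, their escort *SCAP*, the retention proteins *INSIG1* and *INSIG2*, the proteases *MBTPS1* and *MBTPS2*, and *MYLIP*, a ubiquitin ligase of lipoprotein uptake. Members were the microarray probes whose RefSeq transcript belongs to 1 of these symbols. This gave 11 probes for the 8 genes, out of 58201 probes and 24847 gene symbols on the array, and each probe is given separately. All 11 were well above background on all 24 arrays, so all 11 were among the 22970 probes tested.

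The SREBP proteins are made as inactive precursors in the membrane of the endoplasmic reticulum, bound to SCAP. When sterols are plentiful, INSIG1 or INSIG2 holds the SCAP-SREBP complex there. When sterols are scarce, SCAP carries SREBP in COPII vesicles to the Golgi, where the site-1 protease (*MBTPS1*) and then the site-2 protease (*MBTPS2*) release the active factor. SREBP-2, from *SREBF2*, is known mainly for genes of cholesterol synthesis and uptake, and SREBP-1, from *SREBF1*, for genes of fatty acid synthesis. *SREBF1* and *MYLIP* are also known targets of the liver X receptors (LXR), which are activated by oxysterols, and *INSIG1* is itself an SREBP target. The activity of this system is set mostly by protein movement and cleavage, which mRNA levels do not show.

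The cells were U251, an established human glioblastoma line, and in every group they had been kept in medium with charcoal-stripped serum before treatment. They received the solvent DMSO or G-1, a synthetic agonist of the G protein-coupled estrogen receptor GPER, at the study's inhibitory dose (G-1 IC50) or at 1 µM, for 24 h or 72 h. Each of the 6 groups had 4 arrays from separate experiments. The labels give DMSO at 0.1% and the methods at 0.01%, and for 2 groups (titled IC50 at 24 h and 1 µM at 72 h) a second label entry swaps the duration, where the sample titles were followed. The arrays lay on 3 slides of 8. The DMSO and G-1 IC50 arrays shared slides 1 and 2, whereas all 8 arrays of G-1 1 µM were on slide 3, scanned in a second session. At 1 duration, the effect of G-1 1 µM against DMSO or G-1 IC50 and an effect of slide or session cannot be told apart. The comparison of the 1 µM effect between 72 h and 24 h does not contain such an offset if it was constant, since both 1 µM groups were on slide 3 and both DMSO groups on slides 1 and 2. Spots well above background made up 41.1% to 44.5% of each array in the first session and 38.0% to 40.7% in the second. All 7 glioma markers looked at (such as *GFAP*, *SOX2* and *VIM*) were well above background on all 24 arrays, and none of 6 markers of leukocytes, epithelium, endothelium and liver was on any array.

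Both *SREBF* genes carry a microRNA of the miR-33 family within their span, and the mature strands are shown because each lies within a gene described here. The capitals mark the seed (bases 2 to 8), which was the same in both, UGCAUUG, and the sequences differed at 2 of the 20 bases they share in length. hsa-miR-33a-5p lies in *SREBF2* at chr22:41900949-41900969 on the plus strand, and hsa-miR-33b-5p in *SREBF1* at chr17:17813897-17813916 on the minus strand (RefSeq, GRCh38.p14). The microRNAs themselves were not analysed here.
hsa-miR-33a-5p: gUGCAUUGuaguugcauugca
hsa-miR-33b-5p: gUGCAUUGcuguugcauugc

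The promoter windows of *SREBF2*, *INSIG1* and *SREBF1* are shown as those of both transcription factors and of an SREBP target among the members. With G-1 1 µM, *SREBF2*, *INSIG1* and *INSIG2* rose at both durations, and *SREBF1* rose at 24 h and fell at 72 h. Each window runs from 250 bases before to 50 bases after the transcription start in RefSeq (GRCh38.p14). Searched on both strands were TCACNCCAC, a form of the sterol regulatory element, CCAAT, the E-box CACGTG and GGGCGG, and these were chosen with the values known. No match of one motif overlapped a match of another in the member windows, while matches of GGGCGG overlapped each other in *SREBF2* (at 10 and 5 bases before the start) and in *INSIG1* (at 126 and 121 bases). Capitals mark TCACNCCAC, CCAAT (also as ATTGG) and CACGTG. TCACNCCAC was in 1.13% of the 35116 promoter windows, and among the members only in that of *SREBF2*, 133 bases before the start, with an ATTGG at 106 bases. The *INSIG1* window held an ATTGG at 170 bases and a CACGTG at 55 bases before the start. Among the members not shown, *SCAP* held a CACGTG at 58 bases and *MYLIP* an ATTGG at 109 and at 68 bases. The windows of *SREBF1*, *MBTPS1* and *MBTPS2* and both windows of *INSIG2* held none of the 3 motifs in capitals. For *SREBF1* only 1 window was searched, and any other start of the gene was not. Whether a motif goes with a change was not tested. CCAAT was in 34.6% of all windows, CACGTG in 7.26% and GGGCGG in 45.0%. A match is a string of letters and not evidence of a bound site. The windows are chr22:41832855-41833154 on the plus strand, chr7:155297628-155297927 on the plus strand and chr17:17836937-17837236 on the minus strand.
SREBF2: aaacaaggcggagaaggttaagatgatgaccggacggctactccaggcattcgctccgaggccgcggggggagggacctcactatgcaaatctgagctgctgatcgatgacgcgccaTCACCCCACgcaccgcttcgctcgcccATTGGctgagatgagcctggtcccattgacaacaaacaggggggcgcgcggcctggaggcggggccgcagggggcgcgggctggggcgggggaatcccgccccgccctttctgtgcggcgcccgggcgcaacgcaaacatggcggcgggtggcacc
INSIG1: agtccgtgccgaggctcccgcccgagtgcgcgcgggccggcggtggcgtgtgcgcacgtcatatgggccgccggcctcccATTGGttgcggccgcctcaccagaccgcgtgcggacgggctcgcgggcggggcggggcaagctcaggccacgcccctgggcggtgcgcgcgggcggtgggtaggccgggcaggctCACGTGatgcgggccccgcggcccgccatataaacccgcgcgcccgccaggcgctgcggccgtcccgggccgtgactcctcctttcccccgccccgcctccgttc
SREBF1: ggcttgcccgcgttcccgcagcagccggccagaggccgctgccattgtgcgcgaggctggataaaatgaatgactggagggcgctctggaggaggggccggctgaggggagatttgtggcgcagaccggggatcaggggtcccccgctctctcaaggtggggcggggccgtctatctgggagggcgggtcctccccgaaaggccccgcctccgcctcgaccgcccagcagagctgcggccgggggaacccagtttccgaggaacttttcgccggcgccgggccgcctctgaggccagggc

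At 24 h, members rose and none fell at either dose. With G-1 IC50, 3 of the 11 probes were called, those of *SREBF1*, *INSIG1* and *MYLIP*, all higher than in DMSO. A probe was called at an adjusted p under 0.05 in limma, with the Benjamini-Hochberg adjustment over all 22970 probes, and 0.161% of these were called higher and 0.0305% lower in this comparison. With G-1 1 µM, 6 probes of 5 genes were called, all higher (*SREBF1*, *SREBF2*, *INSIG1*, both probes of *INSIG2*, and *MYLIP*), where 17.9% of all probes were higher and 11.8% lower. At 72 h, no member was called with G-1 IC50 in limma, and 3 had an unadjusted p under 0.05, where 0.313% of all probes were called higher and 0.361% lower. At 72 h with G-1 1 µM, 4 probes were higher (*SREBF2*, *INSIG1* and both of *INSIG2*) and 1 lower (*SREBF1*), where 32.6% of all probes were higher and 31.8% lower. With over 6 in 10 probes called there, the count of 5 is not above the background. An absolute fold change above 2 was passed by 1 probe in each of the 3 comparisons with calls. *SCAP*, *MBTPS1* and *MBTPS2* were called in none of the 9 comparisons made. In RNA from whole cultures, more RNA per cell and more cells that express a gene cannot be told apart.

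**Figure D1:**
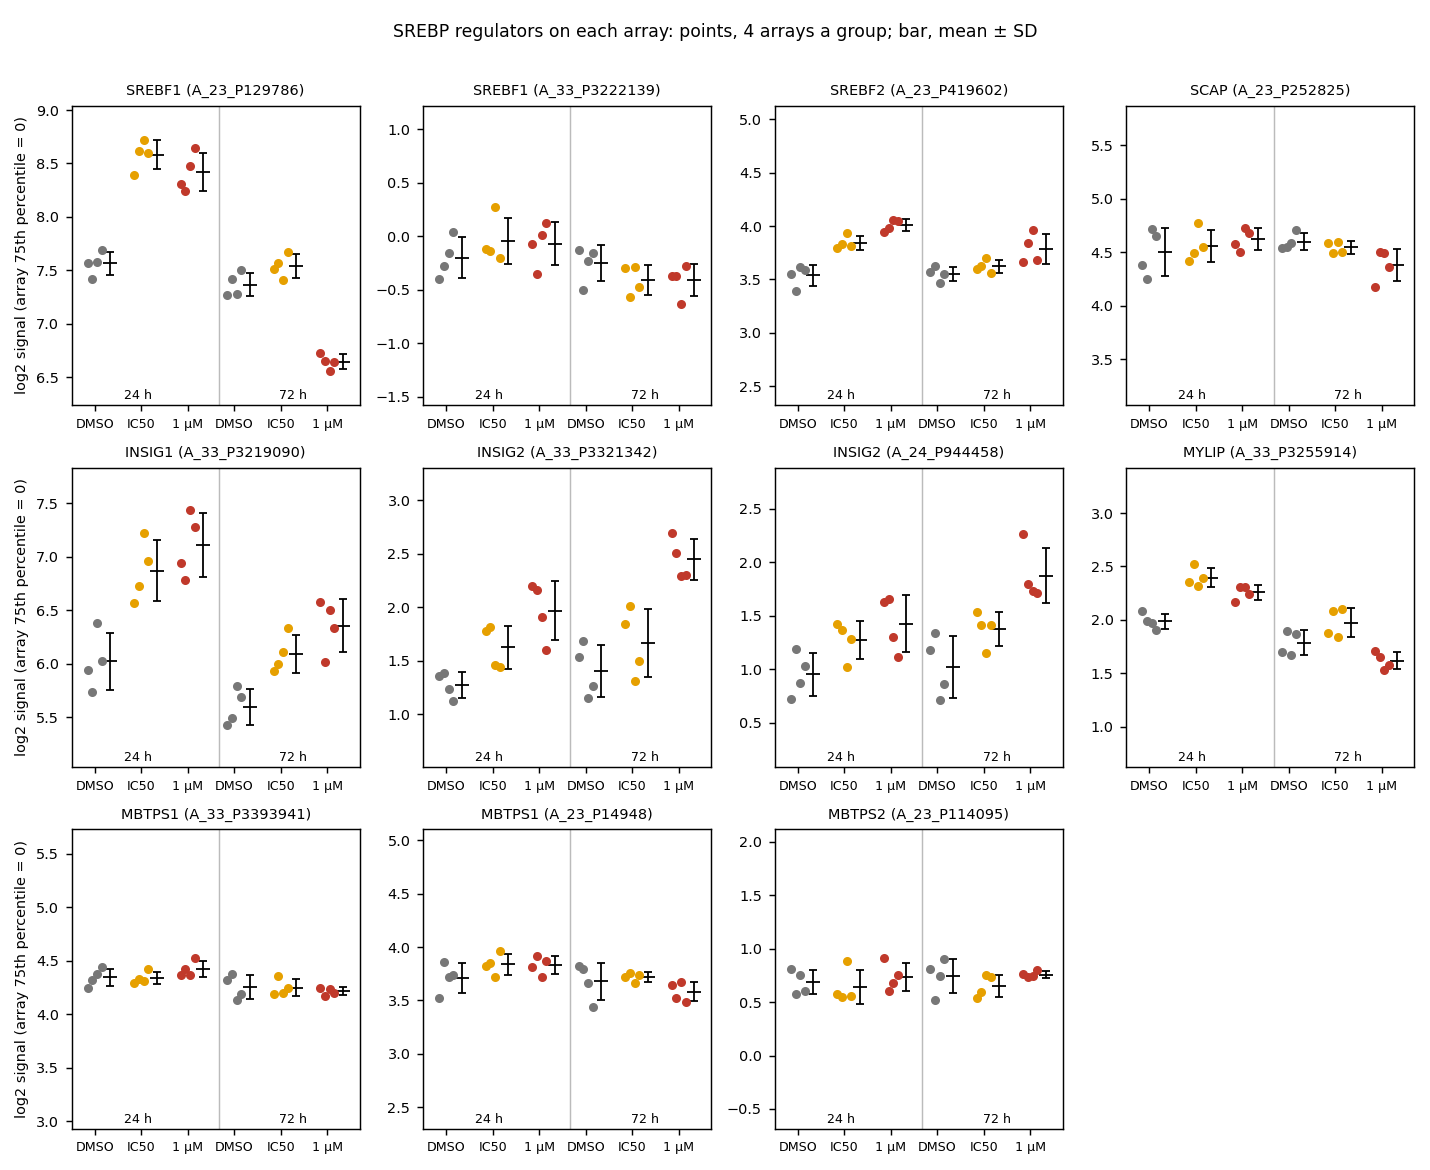
Log2 signal of each of the 11 member probes on every array (vertical axis, 0 being the 75th percentile of the array; every panel spans the same range) for the 3 treatments at each duration (horizontal axis); points are arrays, bars the mean ± SD of 4. SREBF1 (A_23_P129786) lay between 8.24 and 8.72 on the 8 treated arrays of 24 h, above DMSO, and between 6.56 and 6.73 with 1 µM at 72 h, below DMSO.

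*SREBF1* changed direction with duration. On probe A_23_P129786, the log2 signal, with 0 at the 75th percentile of each array, was 7.42, 7.57, 7.58 and 7.69 in DMSO at 24 h, and 8.39, 8.60, 8.62 and 8.72 with G-1 IC50. With G-1 1 µM for 24 h it was 8.24, 8.31, 8.48 and 8.64. All 8 treated arrays of 24 h were thus above all 4 DMSO arrays, and the doses overlapped. The increase was 2.03-fold with G-1 IC50 (log2 difference 1.02, 95% interval 0.83 to 1.21, adjusted p = 2.0e-06) and 1.80-fold with G-1 1 µM (0.85, 0.66 to 1.04, adjusted p = 4.6e-06). At 72 h, the signal was 7.27, 7.28, 7.42 and 7.50 in DMSO, 7.41, 7.51, 7.57 and 7.67 with G-1 IC50, and 6.56, 6.64, 6.65 and 6.73 with G-1 1 µM. DMSO and G-1 IC50 overlapped (0.17, -0.01 to 0.36, adjusted p = 0.61), whereas all 4 arrays of 1 µM were below all others of the series, and *SREBF1* fell 1.65-fold against DMSO (-0.72, -0.91 to -0.54, adjusted p = 7.1e-07). It was also lower with 1 µM than with G-1 IC50 at 72 h (-0.90, -1.09 to -0.71, adjusted p = 4.2e-08).

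The differences between durations were tested directly. For G-1 1 µM, the *SREBF1* effect at 72 h minus that at 24 h was -1.58 on the log2 scale (95% interval -1.84 to -1.31, adjusted p = 5.6e-08 in limma). It was 1 of 2 member probes called in this comparison, with *MYLIP*, where 30.9% of all probes were. For G-1 IC50 it was -0.85 (-1.11 to -0.58, adjusted p = 0.0179), and only 2 probes of all 22970 were called there (0.00871%), this one included. That call was lost when any 1 of 7 arrays was left out (DMSO 24 h replicates 1, 2 and 3, DMSO 72 h replicate 4, G-1 IC50 24 h replicates 2 and 3, and G-1 IC50 72 h replicate 1), with log2 values of -0.80 to -0.85 and adjusted p values between 0.0504 and 0.0661. In DMSO alone, *SREBF1* differed by -0.20 between 72 h and 24 h (adjusted p = 0.26), and no member was called between the DMSO groups in limma, where 2.82% of all probes were and 3 members had an unadjusted p under 0.05. In order of level, the groups ran from G-1 IC50 24 h (8.59 ± 0.14, mean ± SD, n = 4) and G-1 1 µM 24 h (8.42 ± 0.18), which overlapped, to DMSO 24 h (7.56 ± 0.11), G-1 IC50 72 h (7.54 ± 0.11) and DMSO 72 h (7.37 ± 0.12), where neighbours overlapped, and to G-1 1 µM 72 h (6.64 ± 0.07), which was separate.

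The second probe of *SREBF1*, A_33_P3222139, is assigned to another RefSeq transcript than the first and did not pass the test in any comparison. Its log2 signal lay between -0.63 and 0.27 over all 24 arrays, and each treated group overlapped DMSO of the same duration. The differences from DMSO were 0.16 (-0.10 to 0.41) for G-1 IC50 and 0.13 (-0.13 to 0.39) for 1 µM at 24 h, and -0.16 (-0.42 to 0.10) for each dose at 72 h. Each had the sign of the first probe except for G-1 IC50 at 72 h. The gap between the 2 probes within an array was compared by exact permutation of 4 arrays against 4, two-sided. It widened by 0.86 with G-1 IC50 and by 0.72 with 1 µM at 24 h, and narrowed with G-1 1 µM at 72 h (-0.56). In each of these 3 the groups did not overlap, with an exact p = 0.0286, the smallest that 4 against 4 arrays can give, and 0.0952 after adjustment over the 20 within-array comparisons made.

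*SREBF2*, the SREBP-2 gene, moved less and in 1 direction. Its log2 signal was 3.39, 3.55, 3.59 and 3.62 in DMSO at 24 h, 3.79, 3.81, 3.83 and 3.93 with G-1 IC50, and 3.94, 3.98, 4.05 and 4.06 with G-1 1 µM. The 3 groups of 24 h did not overlap and stood in the order of dose, but the nearest arrays of the doses read 3.93 and 3.94. Between the doses the difference was 0.17 (0.02 to 0.31, adjusted p = 0.0812 in limma), and dose and slide cannot be told apart there. With 1 µM *SREBF2* rose 1.38-fold (log2 difference 0.47, 95% interval 0.32 to 0.61, adjusted p = 1.0e-04), while the difference of 0.30 with G-1 IC50 (0.16 to 0.45) had an adjusted p = 0.104, or 0.0458 with the slide as a block. At 72 h, the signal was 3.47, 3.55, 3.57 and 3.63 in DMSO, 3.56, 3.60, 3.63 and 3.70 with G-1 IC50, and 3.66, 3.68, 3.84 and 3.96 with G-1 1 µM. The 1 µM arrays were all above the DMSO arrays, and the increase was 1.17-fold (0.23, 0.08 to 0.37, adjusted p = 0.00685). It was lost with the median of each array as the reference (0.15, adjusted p = 0.224). The 1 µM effect at 72 h minus that at 24 h was -0.24 (-0.44 to -0.04, adjusted p = 0.0695), or -0.30 without G-1 1 µM 72 h replicate 3 (adjusted p = 0.0216). Against G-1 IC50, the 1 µM arrays of 72 h were 0.16 higher (0.01 to 0.30, adjusted p = 0.0521), and this was called without G-1 1 µM 72 h replicate 1 or 4 or G-1 IC50 72 h replicate 3 (0.18 to 0.20, adjusted p values between 0.0215 and 0.0421).

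With G-1 1 µM, *SREBF1* (A_23_P129786) minus *SREBF2* within arrays changed in opposite ways at the 2 durations, but no change passed adjustment. The exact p cannot fall below 0.0286 here, so adjustment over 20 comparisons could hardly be passed, and failing it decides nothing. The difference *SREBF1* minus *SREBF2* rose from 4.03 ± 0.05 (SD, n = 4) in DMSO to 4.74 ± 0.09 (G-1 IC50) and 4.41 ± 0.13 (G-1 1 µM) at 24 h. At 72 h it was 3.82 ± 0.11 in DMSO, 3.92 ± 0.16 with G-1 IC50 and 2.86 ± 0.20 with G-1 1 µM. The changes against DMSO were 0.72, 0.38, 0.10 and -0.95 in that order. The first, second and last had groups that did not overlap (exact permutation p = 0.0286, adjusted p = 0.0952), and the third overlapped (exact p = 0.314). With the other *SREBF1* probe, the changes were -0.15, -0.34, -0.23 and -0.39, and all of them overlapped. Counting these and the pairings of the second *INSIG2* probe as well, 28 comparisons were made, and the smallest adjusted p was 0.133. The absolute values compare 2 probes of unequal brightness, and only their changes between groups can be read.

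**Figure D2:**
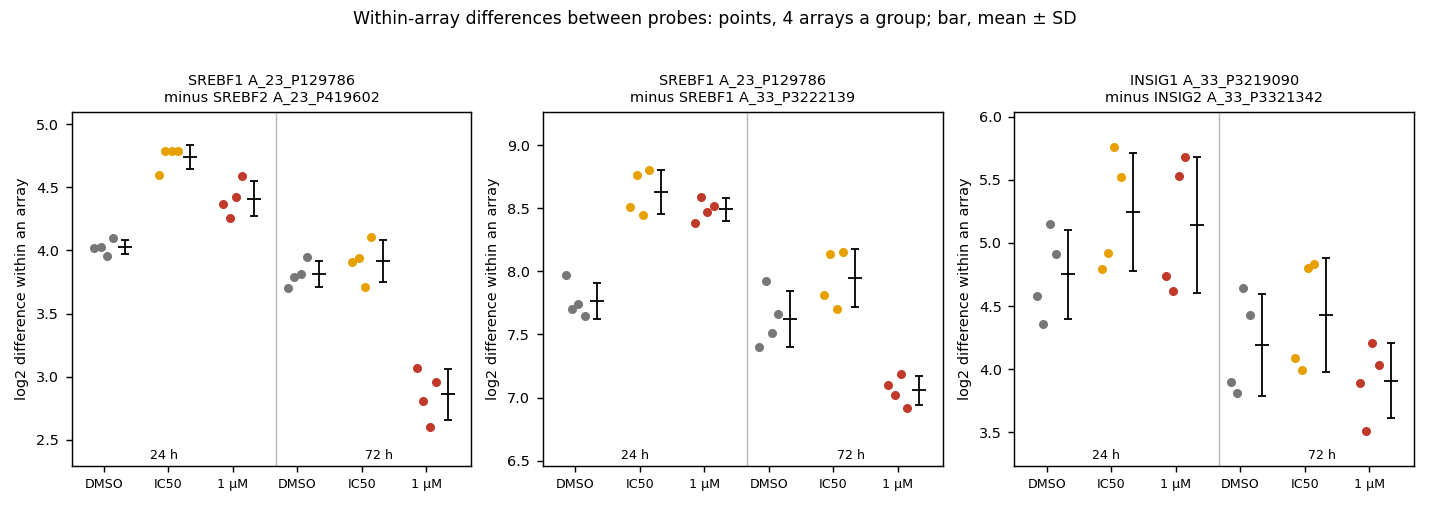
Log2 difference between 2 probes of the same array (vertical axis; every panel spans the same range) for the 6 groups (horizontal axis); points are arrays, bars the mean ± SD of 4. SREBF1 minus SREBF2 was 4.74 with G-1 IC50 at 24 h and 2.86 with G-1 1 µM at 72 h on average, while INSIG1 minus INSIG2 overlapped DMSO in every treated group.

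*INSIG1* was higher in every treated group, with calls in 3 of 4. Its log2 signal was 5.74, 5.94, 6.03 and 6.38 in DMSO at 24 h, 6.57, 6.73, 6.96 and 7.22 with G-1 IC50, and 6.78, 6.94, 7.28 and 7.44 with G-1 1 µM. At 72 h it was 5.43, 5.49, 5.69 and 5.79 in DMSO, 5.93, 6.0, 6.11 and 6.33 with G-1 IC50, and 6.02, 6.33, 6.50 and 6.58 with G-1 1 µM. Treated arrays were above all DMSO arrays of their duration in each of the 4 comparisons, and the doses overlapped. The increase with 1 µM was 2.13-fold at 24 h (1.09, 0.74 to 1.44, adjusted p = 1.3e-04) and 1.69-fold at 72 h (0.76, 0.41 to 1.11, adjusted p = 5.0e-04). With G-1 IC50 it was 1.80-fold at 24 h (0.85, 0.50 to 1.19, adjusted p = 0.0344), and the difference of 0.49 at 72 h (0.14 to 0.84) had an adjusted p = 0.284. The call with G-1 IC50 at 24 h was lost without DMSO 24 h replicate 1, 2 or 4 or G-1 IC50 24 h replicate 2, 3 or 4 (log2 differences of 0.73 to 0.89, adjusted p values between 0.0592 and 0.197).

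*INSIG2* rose with G-1 1 µM at both durations and was not called with G-1 IC50. On probe A_33_P3321342, the log2 signal was 1.12, 1.23, 1.36 and 1.38 in DMSO, 1.44, 1.46, 1.78 and 1.81 with G-1 IC50, and 1.60, 1.91, 2.16 and 2.20 with G-1 1 µM at 24 h. At 72 h it was 1.15, 1.26, 1.53 and 1.68 in DMSO, 1.31, 1.50, 1.84 and 2.01 with G-1 IC50, and 2.29, 2.30, 2.51 and 2.69 with G-1 1 µM. The 1 µM arrays of 72 h were above all other arrays of the series, and at 24 h the G-1 IC50 arrays were all above DMSO as well. With G-1 IC50 the differences from DMSO were 0.35 (0.02 to 0.68, adjusted p = 0.997) at 24 h and 0.26 (-0.07 to 0.59, adjusted p = 0.699) at 72 h, and on the second probe 0.32 (adjusted p = 0.997) and 0.36 (adjusted p = 0.503). The increase with 1 µM was 1.62-fold at 24 h (0.69, 0.36 to 1.02, adjusted p = 0.00312) and 2.06-fold at 72 h (1.04, 0.71 to 1.37, adjusted p = 9.2e-06). The second probe, A_24_P944458, also rose with 1 µM, 1.39-fold at 24 h (0.47, 0.14 to 0.80, adjusted p = 0.0294) and 1.81-fold at 72 h (0.85, 0.53 to 1.18, adjusted p = 8.4e-05). Its call at 24 h was lost without DMSO 24 h replicate 1 or 3 or G-1 1 µM 24 h replicate 1 or 2 (0.39 to 0.44, adjusted p values between 0.0676 and 0.094). At 72 h, both probes were higher with 1 µM than with G-1 IC50 (0.78, adjusted p = 2.4e-04, and 0.50, adjusted p = 0.00923), where 63.4% of all probes were called in either direction.

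For *INSIG1* the mean effect of 1 µM was lower at 72 h than at 24 h, and for *INSIG2* it was higher, but neither difference passed the test without a block. It was -0.33 (-0.82 to 0.16, adjusted p = 0.31) for *INSIG1*, and 0.35 (-0.12 to 0.82, adjusted p = 0.251) and 0.38 (-0.08 to 0.85, adjusted p = 0.202) for the probes of *INSIG2*. The first of these was called with the replicate number as a block (0.35, adjusted p = 0.0244). The difference *INSIG1* minus *INSIG2* within arrays overlapped DMSO in all 4 treated groups, with changes of 0.50, 0.40, 0.23 and -0.28 (IC50 then 1 µM at 24 h, and IC50 then 1 µM at 72 h) and exact p values between 0.171 and 0.486. Between the doses at 24 h, no member was called in limma, with 2 at an unadjusted p under 0.05, where 26.4% of all probes were called. With the replicate number as a block, A_33_P3321342 of *INSIG2* was called there (0.35, adjusted p = 0.00421, against 0.111 without the block), and it was also called without G-1 1 µM 24 h replicate 4 (0.47, adjusted p = 0.0365).

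*MYLIP*, a ubiquitin ligase known as an LXR target, rose at 24 h with both doses, by less than *SREBF1*. Its log2 signal was 1.91, 1.97, 1.99 and 2.08 in DMSO at 24 h, 2.32, 2.35, 2.39 and 2.52 with G-1 IC50, and 2.17, 2.24, 2.31 and 2.31 with G-1 1 µM. These 3 groups did not overlap, with G-1 IC50 the highest. The increase was 1.33-fold with G-1 IC50 (0.41, 0.26 to 0.56, adjusted p = 0.0155) and 1.21-fold with G-1 1 µM (0.27, 0.12 to 0.42, adjusted p = 0.00993). The first call was lost without DMSO 24 h replicate 3 or 4 or G-1 IC50 24 h replicate 2 (0.37 to 0.40, adjusted p values between 0.0554 and 0.0882). With the median of each array as the reference both calls were lost (0.50, adjusted p = 0.0848, and 0.19, adjusted p = 0.228), as they were with normexp background correction (0.32, adjusted p = 0.124, and 0.18, adjusted p = 0.0998). At 72 h, the signal was 1.67, 1.70, 1.87 and 1.90 in DMSO, 1.84, 1.88, 2.08 and 2.10 with G-1 IC50, and 1.53, 1.58, 1.65 and 1.71 with G-1 1 µM. Each dose overlapped DMSO, with differences of 0.19 (0.04 to 0.34, adjusted p = 0.402) and -0.17 (-0.32 to -0.01, adjusted p = 0.0531). The latter was called when DMSO 72 h replicate 1 or 3 or G-1 1 µM 72 h replicate 1 was left out (-0.20 to -0.21, adjusted p values between 0.0293 and 0.0417). *MYLIP* was lower with 1 µM than with G-1 IC50 at 72 h (-0.36, -0.51 to -0.20, adjusted p = 2.8e-04), and the 1 µM effect differed between durations by -0.44 (-0.65 to -0.22, adjusted p = 0.00332), or by -0.18 with normexp background correction (adjusted p = 0.231).

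The escort and the proteases gave no calls. *SCAP* lay between 4.17 and 4.77 on all 24 arrays. Its largest difference from DMSO was -0.22 with 1 µM at 72 h (-0.43 to -0.01, adjusted p = 0.0575), where the arrays read 4.17, 4.36, 4.49 and 4.50 against 4.54, 4.55, 4.59 and 4.71 in DMSO and did not overlap. This value was called without G-1 1 µM 72 h replicate 2 or 3 (-0.26 in both, adjusted p = 0.0412 and 0.0446) and under 5 other settings, quantile normalization among them (-0.32, adjusted p = 0.00459). For *MBTPS1*, the differences from DMSO were between -0.10 and 0.13 over both probes and all 4 comparisons, and the 95% intervals lay within -0.27 and 0.30. For *MBTPS2*, they were between -0.09 and 0.05, with intervals within -0.27 and 0.24. The 1 µM effect at 72 h minus that at 24 h was -0.35 for *SCAP* (-0.64 to -0.05, adjusted p = 0.0666), and this was called without DMSO 24 h replicate 3 or 4 or G-1 1 µM 72 h replicate 2 (-0.39 to -0.42, adjusted p values between 0.0266 and 0.0494). For A_23_P14948 of *MBTPS1* it was -0.22 (adjusted p = 0.169), and -0.30 without DMSO 72 h replicate 4 (adjusted p = 0.0451).

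**Figure D3:**
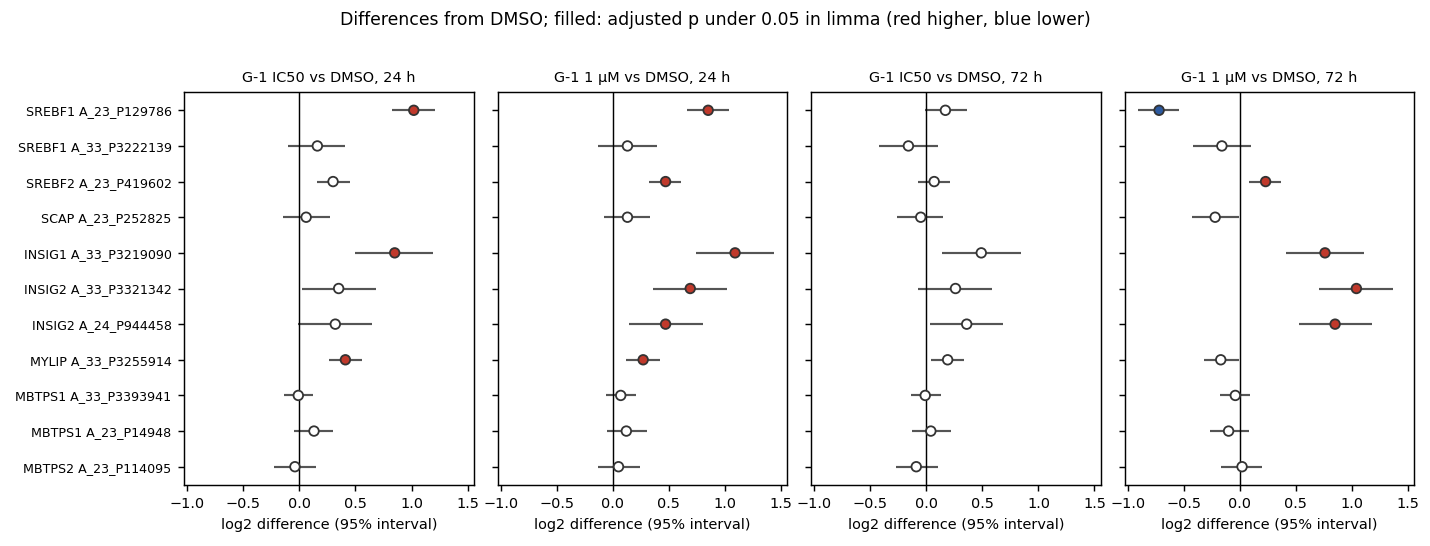
Log2 difference from DMSO of the same duration (horizontal axis) with its 95% interval for the 11 member probes (rows) in the 4 comparisons (panels); filled points passed an adjusted p of 0.05 in limma, red higher and blue lower. SREBF1 (A_23_P129786) moved from 0.85 at 24 h to -0.72 at 72 h with 1 µM, while both INSIG2 probes were at 0.85 or above at 72 h.

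The *SREBF1*, *INSIG1* and *MYLIP* values with G-1 IC50 at 24 h were about as large within each slide. *SREBF1* was 1.06 higher than DMSO on slide 1 (2 against 3 arrays) and 1.07 higher on slide 2 (2 against 1 array). *INSIG1* was 0.86 and 1.03 higher, *MYLIP* 0.44 and 0.38 higher, and *SREBF2* 0.29 and 0.41 higher on the same slides. At 72 h, *INSIG1* was 0.41 and 0.51 higher with G-1 IC50 than DMSO on slides 1 and 2. No such values exist for G-1 1 µM, since slide 3 held no other treatment.

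Genes that SREBP-2 is known to switch on went with *SREBF2* and *INSIG1* in direction. Genes were counted by their brightest probe. Of 20 measured sterol targets, 1 rose with G-1 IC50 at 24 h (*STARD4*, a sterol carrier, by 1.04), with a median log2 difference of 0.47 over the list against -0.014 over all 14235 genes tested. Over all genes, 0.218% were called higher there and 0.0281% lower. With 1 µM, 15 of 20 rose and none fell at 24 h (median 0.58), where 20.0% of all genes were higher and 10.5% lower. The largest increases were in *MVD* (1.21), which makes isopentenyl diphosphate, and *LSS* (1.12), which closes the sterol ring. At 72 h, 14 rose and none fell with 1 µM (median 0.64), led by *MSMO1* (1.38), a C-4 demethylating oxidase, *FDFT1* (0.96), the squalene synthase, and *IDI1* (0.92), where 35.3% of all genes were higher and 30.9% lower. With G-1 IC50 at 72 h no sterol target was called in limma (median 0.19), where 0.429% of all genes were higher and 0.457% lower.

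The fatty acid genes known as SREBP-1 targets behaved differently between the durations. With G-1 IC50 at 24 h, 4 of 11 rose (median 0.49): *FASN*, the fatty acid synthase, by 1.16, the desaturases *FADS1* and *FADS2* by 0.91 and 0.76, and *ACACA*, an acetyl-CoA carboxylase, by 0.66. Of all genes, 0.218% were higher and 0.0281% lower there. With 1 µM, 8 of 11 rose at 24 h (median 0.51), with *FASN* at 1.39, *FADS1* at 1.06 and *FADS2* at 0.94. Of all genes, 20.0% were higher and 10.5% lower in that comparison. At 72 h, 2 rose with 1 µM (*ACLY*, the ATP citrate lyase, by 1.06 and *FADS2* by 0.55) and *ACACA* fell by 0.32, with a median of 0.07. Of all genes, 35.3% were higher and 30.9% lower there, so these counts are not above the background. The second probe of *ACACA* read 0.19 there and was not called. A second probe of *ELOVL5*, also in the list, rose by 0.56 (adjusted p = 1.1e-05 in limma). Further probes of *LPIN1* read -1.08 (adjusted p = 2.7e-06) and 0.42 (adjusted p = 0.0625). The 1 µM effect was lower at 72 h than at 24 h for 5 of the 11 (*FASN* -1.04, *ACACA* -0.83, *FADS1* -0.78, *ACSS2* -0.73 and *LPIN1* -0.73, where further probes read -0.44 for *ACACA* and -1.35 and -0.02 for *LPIN1*) and for 1 of the 20 sterol targets, and higher for none of either list, where 17.6% of all genes were lower and 16.5% higher. Whether the lists differ from each other was not tested. With G-1 IC50 at 72 h none of the 11 was called in limma (median -0.01), and *ACACA* was the only one whose G-1 IC50 effect differed between the durations (-0.67, adjusted p = 0.0103, with -0.86 and an adjusted p = 0.121 on its second probe).

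**Figure D4:**
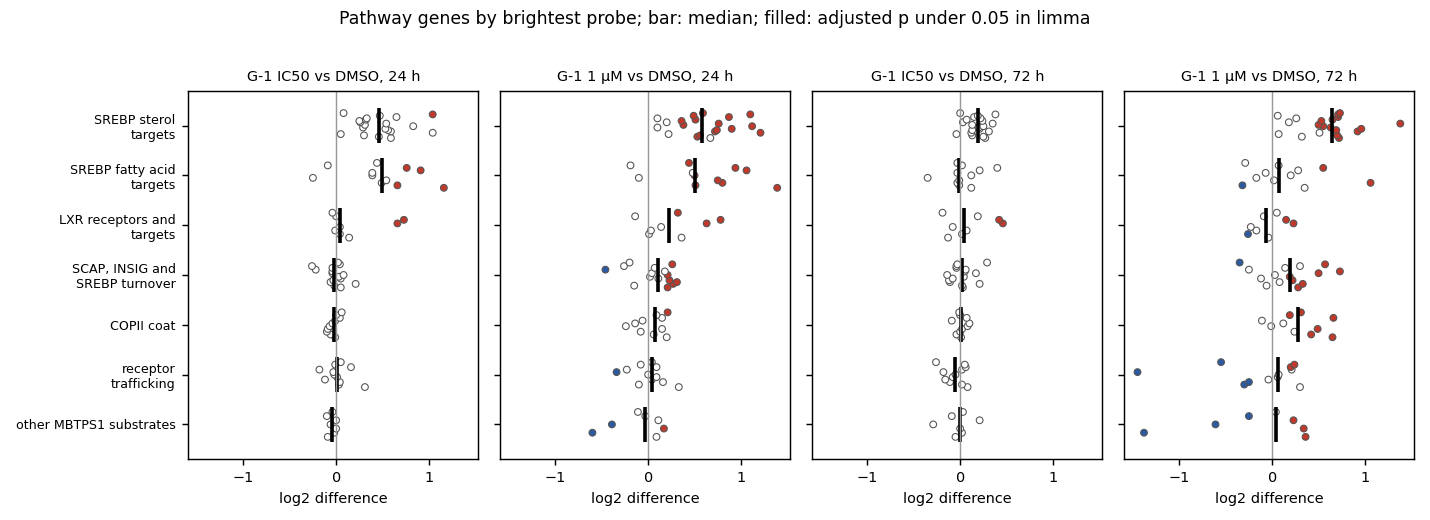
Log2 difference from DMSO of the same duration (horizontal axis) for the genes of 7 pathway lists (rows) by their brightest probe in the 4 comparisons (panels); black bars are list medians, and filled points passed an adjusted p of 0.05 in limma. The sterol targets had medians of 0.58 at 24 h and 0.64 at 72 h with 1 µM, and the fatty acid targets 0.51 and 0.07.

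Of the LXR receptors and targets, 8 were measured. With G-1 IC50, 2 were called higher and none lower at each duration. There 0.218% of all genes were higher at 24 h and 0.429% at 72 h. With 1 µM, 3 were higher and none lower at 24 h, where 20.0% of all genes were higher. At 72 h, 2 were higher and 1 lower with 1 µM, where 35.3% of all genes were higher and 30.9% lower. This last count is not above the background. *ABCA1*, a cholesterol exporter, and *LPCAT3*, which remodels phospholipids, rose in all 4 comparisons: with G-1 IC50 by 0.66 and 0.73 at 24 h and by 0.46 and 0.42 at 72 h, and with 1 µM by 0.63 and 0.78 at 24 h and by 0.23 and 0.15 at 72 h. Their 1 µM effects were lower at 72 h than at 24 h, with differences of -0.40 for *ABCA1* and -0.62 for *LPCAT3*, the sign seen for *SREBF1* and *MYLIP*. The second probe of *ABCA1* was called in 3 of the 4 comparisons and read 0.33 with G-1 IC50 at 72 h (adjusted p = 0.0766). *APOE*, the apolipoprotein, also rose with 1 µM at 24 h (0.32), and at 72 h *NR1H3*, which encodes LXR alpha, fell by 0.26. The medians of the 8 against DMSO were between -0.06 and 0.23. At 72 h, 1 of the 8 was higher with 1 µM than with G-1 IC50 and 5 were lower. In that comparison 63.4% of all probes were called in either direction.

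Genes for the steps around SCAP, INSIG and SREBP were called with 1 µM, where 20.0% of all genes were higher and 10.5% lower at 24 h, and 35.3% higher and 30.9% lower at 72 h. Whether the counts of these lists exceed those shares was not tested. Of 15 genes that retain, degrade or support these proteins, 6 rose and *ERLIN2* fell by 0.46 at 24 h (median 0.11; its other probes read -0.12 and -0.76), and 7 rose and 1 fell at 72 h (median 0.19). The largest increases at 72 h were in *ERLIN1* (0.73), a scaffold of the degradation of INSIG1 and HMG-CoA reductase, *SPRING1* (0.57), a cofactor of the site-1 protease, and *FAF2* (0.50), which takes part in degradation at the endoplasmic reticulum. *FBXW7*, the ligase that degrades active SREBP, fell by 0.35. Of 10 genes of the COPII coat, which packs SCAP-SREBP into vesicles, 1 rose at 24 h (*SEC31A*, 0.21) and 6 rose at 72 h (median 0.27), among them *SEC24D* (0.66) and *SAR1A* (0.65). Probes of a gene differed here: *SEC24A* read -0.01 on its brightest probe and rose by 0.92 and 0.78 on the others, *SEC31A* rose by 0.31 and 0.66, and the second probe of *SAR1A* rose by 0.23.

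Of 11 genes for the trafficking and degradation of surface receptors, 1 fell with 1 µM at 24 h, and 2 rose and 4 fell at 72 h (median 0.06), against the shares of all genes just given. These counts are not clearly above those shares. A further probe of *UBE2D3*, in this list, rose by 0.35 at 24 h, where its brightest probe was not called. At 72 h that further probe rose by 0.95 (adjusted p = 9.7e-04 at 24 h and 3.2e-10 at 72 h in limma). *VPS35L*, of the retriever complex that recycles surface receptors, fell at both durations (-0.34 and -1.45), and *BMP1*, a secreted protease (-0.55), and *DAB2*, an endocytic adaptor (-0.30), fell at 72 h. Of 7 other substrates of the site-1 protease, 1 rose and 2 fell with 1 µM at 24 h, and 3 rose and 3 fell at 72 h (median 0.04), beside 35.3% of all genes higher and 30.9% lower at 72 h. With so few genes, these counts are not clearly above the background. *ATF6B* (-0.60 and -1.38) and *CREB3L1* (-0.39 and -0.61) fell at both durations, and *ATF6*, a sensor of endoplasmic reticulum stress, rose by 0.36 at 72 h. None of the turnover, coat, trafficking or substrate genes was called with G-1 IC50 at either duration in limma, where 0.218% of all genes were higher and 0.0281% lower at 24 h, and 0.429% and 0.457% at 72 h. Of the 7 glioma markers, 6 fell with 1 µM at 72 h (among them *GFAP* at -2.71, *S100B* at -1.96 and *SOX2* at -0.83) and 1 at 24 h (*SOX2* at -0.38). *SOX9* read 0.06 at 72 h and was not called, and a second probe of *CD44*, whose brightest probe fell by 0.39, rose by 0.90 (adjusted p = 1.9e-06). Of all genes, 30.9% fell at 72 h and 10.5% at 24 h. The median of the 7 was -0.39 at 72 h. They moved in the group in which *SREBF1* fell, and their part in that result was not tested.

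For each member whose 6 group means differed by the F test, the 3 genes with the most similar pattern over the 24 arrays are named by Pearson's r, as a description, since the arrays share slides and groups. For *SREBF1* they were *ACACA* (0.97), *MYLIP* (0.94) and *GACAT2* (0.94), and for *MYLIP* they were *SREBF1* (0.94), *ACACA* (0.92) and *SLC25A18* (0.88). For *SREBF2* they were *OLMALINC* (0.91), *DHCR7* (0.89) and *FADS2* (0.89), and for *INSIG1* they were *FADS2* (0.96), *STARD4* (0.96) and *LSS* (0.94). The pattern of *INSIG2* stood nearest to *EGLN1* (0.96), *FAM89A* (0.95) and *PFKFB4* (0.95), none of which was among the nearest of any other member. *SCAP*, *MBTPS1* and *MBTPS2* did not pass the F test (adjusted p = 0.247, 0.0558 and 0.729).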

How the data were processed

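RNA from U251 cells was hybridized in 1 colour (Cy3) to Agilent arrays, 24 in all. Per the labels, the scans were processed with Agilent Feature Extraction 10.7.3.1, while the file headers give version 12.1.1.1. The authors deposited an intensity for every spot, background-subtracted by this software and not normalized between arrays, with flags for spots well above background and for outliers. They also deposited a table of log2 values, which matched log2 intensities with the 75th percentile of their array subtracted, centred per probe on the median (median difference 0.0014, largest 0.0058). The array number and the signal over background limit the precision.

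Outlier spots were left out and replicate spots averaged, after which log2 intensities were taken relative to the 75th percentile of the array. Transcripts were matched to symbols through RefSeq. Probes were kept where every array of 1 or more groups was well above background, and these 22970 were fitted with limma 3.58.1 in R 4.3.3, with 6 group means over 24 arrays and moderated variances. The Benjamini-Hochberg adjustment ran over all probes tested, and 95% intervals use the moderated degrees of freedom. Differences between probes of an array were compared by two-sided exact permutation tests. The fit was checked on simulated data with known changes.

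The members and gene lists were chosen with earlier results of these data known. All member probes are described. From each list, the called genes with the largest differences were named, and some genes of these pathways are not reported here. *ACSS2*, *LPIN1*, *FBXW7* and *ACACA* with G-1 IC50 complete small counts and were named after their values were seen. *ELOVL5* and *UBE2D3* were also named after their values were seen, for a further probe of each. Arrays with the same replicate number deviated together in all 4 pairs in the comparisons of G-1 1 µM with DMSO (correlations 0.17 to 0.28) and with G-1 IC50 (0.20 to 0.31) at 24 h. The labels do not say what the number marks. The alternatives were other normalizations (quantile, 50th percentile, normexp with an offset of 50 on the median signal), other filters on dim probes, the deposited table, an intensity trend, fits on the arrays compared only, the methods' t-test, a fold change threshold of 2, the replicate number as a block, the slide as a block, and each array left out.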

Additional observations from a re-analysis of the deposited data

Results flagged for a closer look

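The effect of G-1 on *SREBF1* (A_23_P129786) differed between durations at both doses, by -0.85 on the log2 scale for G-1 IC50 (adjusted p = 0.0179 in limma) and by -1.58 for G-1 1 µM (adjusted p = 5.6e-08), taken as 72 h minus 24 h. The G-1 IC50 call was lost under 9 of 26 alternatives, with adjusted p values up to 0.168. On the second *SREBF1* probe the G-1 IC50 value was -0.31 and was not called. The effect of G-1 1 µM on *MYLIP* differed between durations by -0.44 (adjusted p = 0.00332), and this value was -0.18 with normexp background correction (adjusted p = 0.231). Among the 66 groups of 4 arrays of the member probes, 2 held an array far from the other 3. For the second *SREBF1* probe (A_33_P3222139) with G-1 IC50 at 24 h, 1 array read 0.27, with a gap to its nearest neighbour of 0.835 of the range of the group. For *MBTPS2* in the same group, 1 array read 0.88, with a gap of 0.904 of the range. Both values came from replicate 3. Chance alone gives such a gap in about 1 in 20 groups.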

How the results depend on the processing

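Counts of called member probes are given as in the report first. For G-1 IC50 against DMSO at 24 h, 3 became 1 without a filter on dim probes, 1 with only the arrays compared, 1 with a fold change above 2 and 0 with the methods' t-test, and *SREBF1* was the probe left in all but the last. Without the filter, 24 of 58118 probes were called there, against 44 of 22970 in the main fit. Over all probes, only the arrays compared gave 6 calls and the methods' t-test 4. That t-test was given the Benjamini-Hochberg adjustment here, which the methods do not state for it, and *SREBF1* then had an adjusted p = 0.0881. The paper lists *SREBF1* as upregulated there by its own t-test. At 72 h, 0 became 1 with the replicate block (*INSIG1*, 0.49, adjusted p = 0.0261), where the calls over all probes went from 155 to 367. Between G-1 1 µM and DMSO, 6 at 24 h and 5 at 72 h each became 1 with a fold change above 2, and 5 became 8 with quantile normalization, with *SCAP*, *MYLIP* and 1 probe of *MBTPS1* lower in addition. Of all 22970 probes, 14780 were called at 72 h in the main fit and 14760 with quantile normalization. For G-1 1 µM against G-1 IC50 at 24 h, 0 became 1 with quantile normalization, the 50th percentile and normexp (*SREBF1*, -0.24 to -0.37) and with the replicate block (*INSIG2*). The calls over all probes were 6060 in the main fit, and 5576, 3943, 4838 and 7052 with these settings in that order. At 72 h, 4 became 7 with quantile normalization and 0 with a fold change above 2. Over all probes, 14561 were called there in the main fit and 14502 with quantile normalization. The IC50 effect between durations went from 1 to 0 with the 50th percentile, without a filter and with a fold change above 2. The 1 µM effect between durations went from 2 to 1 with normexp and with a fold change above 2, and to 4 with the replicate block (*INSIG2*, 0.35, adjusted p = 0.0244, and *SCAP*, -0.35, adjusted p = 0.0256, in addition). The calls over all probes went from 7090 to 6272 with normexp and to 7937 with the replicate block. Between the DMSO groups, 0 became 1 with normexp (*MYLIP*) and 1 with the replicate block (*INSIG1*). There the calls over all probes went from 647 to 893 and to 1301 in that order. The causes of these changes were not tested. Leaving out single arrays gave the 9 counts 1 to 3, 0 to 0, 5 to 6, 5 to 6, 0 to 1, 4 to 5, 0 to 1, 2 to 3 and 0 to 0, in the order IC50 at 24 h and 72 h, 1 µM at both, 1 µM against IC50 at both, the effect between durations of IC50 and 1 µM, and DMSO. Over the 21 called values, 363 of 403 alternative values kept the call, 40 lost it and 0 reversed, and 12 of the 21 kept it under all. Outside the 2 comparisons named with the processing, not every same-numbered pair of arrays had a correlation of deviations over 0.1 (0.05 to 0.48 for G-1 IC50 and 0.02 to 0.10 for 1 µM against DMSO at 72 h), and the replicate block is only an alternative there. The 50th percentile moved the median of all tested probes from 0.034 to -0.133 (24 h) and from 0.025 to -0.138 (72 h) between 1 µM and IC50. For the within-array differences, leaving out each of the 24 arrays in turn, chosen after seeing the data, gave 160 values, of which 0 were called by the exact permutation test and 50 had an unadjusted p under 0.05 (adjusted p values between 0.0816 and 0.971). With so few arrays the exact p cannot fall below 0.0286, so the adjusted test could hardly call any value, and this count decides nothing.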
